A study of Schizosaccharomyces pombe with 4 samples.

Results

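The mating-type region of the fission yeast Schizosaccharomyces pombe was represented on the array by 2 sets of 60-base tiles, a separate mating-type contig with 110 tiles and a stretch of chromosome II around the mating-type cassettes with 298 tiles at array positions 2080200 to 2169900. All tiles of the contig and all tiles of the stretch that were not control spots were taken, giving 408 of the 41551 tiles on the array. H3K9me3, the trimethylated lysine 9 of histone H3, was measured by ChIP in wild-type (wt) cells and in cells of the genotype clr3-CDx2, and the labels name tetR-clr4 for both, a name that joins the tetracycline repressor TetR with the H3K9 methyltransferase Clr4. What clr3-CDx2 stands for is not stated in the labels. The wt ON and clr3-CDx2 ON cells were grown in minimal medium at 32 °C for 20 generations in the absence of thiamine, then kept in 850 µg/ml 5-fluoroorotic acid through 5 generations before fixing. The wt OFF and clr3-CDx2 OFF cells came from the same cultures after 14 further generations in medium with thiamine (5 µg/ml) and tetracycline (2.5 µg/ml). Each of the 4 groups had 1 array, which leaves every difference without a replicate check and without a p-value. The time of harvest, the end of the 5-fluoroorotic acid treatment and the switch to OFF cannot be told apart.

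Fission yeast switches mating type by copying a silent cassette into the expressed mat1 cassette. The silent cassettes lie on chromosome II in a heterochromatic domain in which Clr4 methylates H3K9, Swi6 and other chromodomain proteins bind the mark, and histone deacetylases, Clr3 among them, keep the domain silent. An element related to the pericentromeric repeats lies inside the domain, and inverted repeats with B box motifs, the binding sequence of the RNA polymerase III factor TFIIIC, flank it as boundaries.

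The repeats that set the geometry of the region were read from the RefSeq sequence of build ASM294v3. Tile positions of the stretch lay 1697 bp above those of that build, an offset at which the array's own names for repeated tiles matched repeated 31-base words for 291 of 298 tiles, and offsets from 1660 to 1720 bp matched equally many. The cassettes at mat1 (chrII:2114100-2115422) and mat3 (chrII:2132467-2133789) were identical over 1323 bp, so a tile inside a cassette reads both copies and its signal cannot be assigned to either. The left (chrII:2129237-2131303) and right (chrII:2135026-2137092) inverted repeats were identical over 2067 bp as reverse complements, and the same holds for tiles within them. The interval from the left to the right repeat had a GC content of 30.4%, against 35.2% over the whole stretch. The cassette sequences below show where the shared letters begin and end, which is why tiles on either side of a junction can be assigned to a place and tiles inside cannot. Capitals mark the shared cassette in the first 4 (chrII:2114060-2114149, chrII:2132427-2132516, chrII:2115373-2115462 and chrII:2133740-2133829, plus strand) and the B box letters in the last (chrII:2129452-2129520, plus strand).
mat1 left junction: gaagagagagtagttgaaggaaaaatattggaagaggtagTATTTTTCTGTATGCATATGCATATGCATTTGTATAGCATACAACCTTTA
mat3 left junction: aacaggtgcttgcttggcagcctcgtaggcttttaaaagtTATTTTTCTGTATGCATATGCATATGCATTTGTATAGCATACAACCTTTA
mat1 right junction: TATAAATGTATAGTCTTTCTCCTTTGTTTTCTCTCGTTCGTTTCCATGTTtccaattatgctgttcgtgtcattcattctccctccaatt
mat3 right junction: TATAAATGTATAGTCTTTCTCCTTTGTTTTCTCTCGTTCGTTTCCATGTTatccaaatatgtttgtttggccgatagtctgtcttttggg
left repeat B box: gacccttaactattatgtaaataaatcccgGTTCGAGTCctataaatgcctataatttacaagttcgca
The core of the B box was searched as GTTCGANTC on both strands. The stretch held 3 matches, at chrII:2129482-2129490 on the plus strand in the left repeat, at chrII:2136839-2136847 on the minus strand in the right repeat, and at chrII:2107868-2107876 on the minus strand outside both. Of 6081 genomic windows of 2067 bp, 242 held a match, or 3.98%. A match describes letters only.

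The level of a tile was log2 of processed ChIP over processed input signal, minus the median of its array, so 0 is the array median and 1 is a level 2-fold above it. Where 4 values are given in a row with no other order named, the first pair is wt ON and OFF and the second pair clr3-CDx2 ON and OFF. Spots marked non-uniform by the scanner software were dropped from the array concerned, which removed 11 (ON) and 7 (OFF) contig spots in wt, 3 (ON) and 13 (OFF) in clr3-CDx2, and 5 or fewer in the stretch on any array. No spot was saturated, and 407 of the 408 tiles were well above background. The exception was tile 2117100 of the stretch, just right of the mat1 cassette, on all 4 arrays.

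Along the contig, H3K9me3 formed a narrow peak near the left end, a low arm, and a broad plateau that reached to within a few tiles of the right end on all 4 arrays. The plateau began between tiles 18600 and 20400. In wt ON the level was 0.23 at tile 18600, 1.07 at 19200, 3.38 at 19800 and 4.67 at 21000. In clr3-CDx2 ON it was 0.02, 0.64, 2.27 and 3.79 at the same tiles. On the OFF arrays tile 18600 read 1.33 for either genotype, and tile 19200 read 2.82 (wt) and 2.29 (clr3-CDx2). The OFF arrays were thus above 2 at a tile where the ON arrays were at 1.07 or less. A level of 1 or more was met by 53 of 99 contig tiles in wt ON (12.9% of all tiles on that array), 72 of 103 in wt OFF (13.4%), 55 of 107 in clr3-CDx2 ON (14.9%) and 60 of 97 in its OFF array (16.7%).

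**Figure D1:**
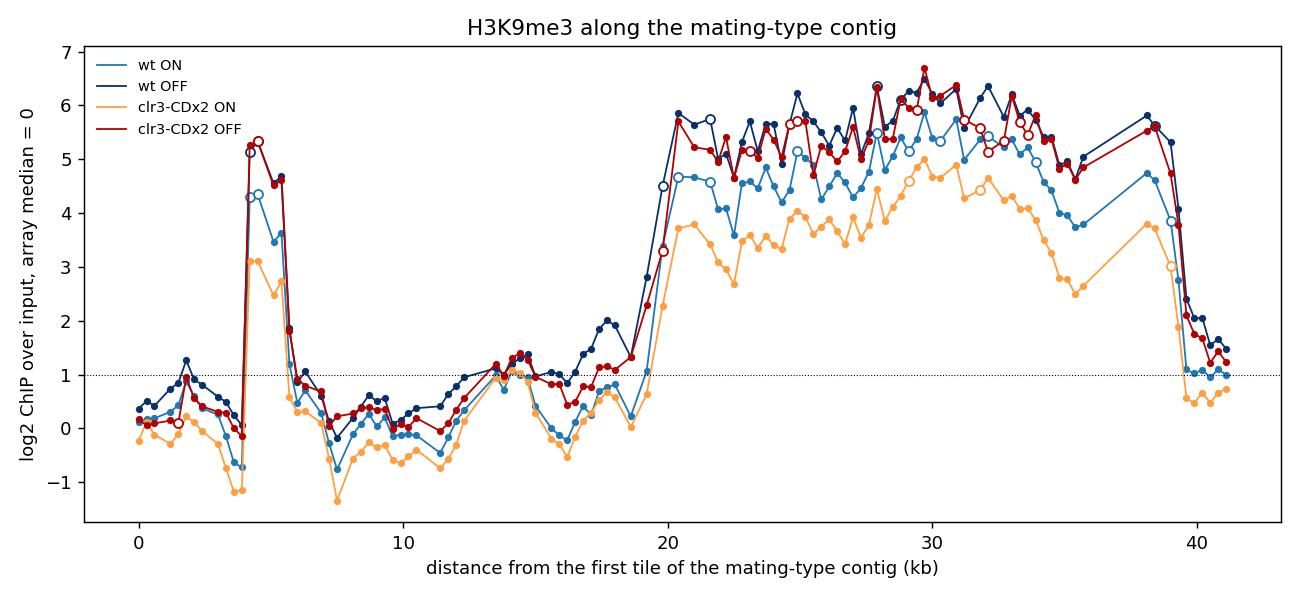
H3K9me3 level (log2 ChIP over input, array median at 0) at each tile of the mating-type contig, by distance from its first tile in kb, for 1 array per group. Filled points are used spots, open points spots marked non-uniform, and the dotted line is a level of 1; in the plateau the wt ON median was 4.79 and the clr3-CDx2 ON median 3.89.

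The contig fell into blocks by the array's own tile names. The 38 tiles from 22800 to 34800 carried no suffix of sharing with chromosome II and are called the contig-only block here. Their median level was 4.79 in wt ON, with a range over tiles of 4.01 to 5.88. It was 5.71 in wt OFF (4.89 to 6.50), 3.89 in clr3-CDx2 ON (2.80 to 5.00) and 5.38 in its OFF array (4.71 to 6.70). Every used tile of the block on each array was above 1, and clr3-CDx2 ON was the lowest of the 4 arrays by median. Inside the plateau the level was not flat: the 3 kb from 24000 had medians of 4.50, 5.62, 3.71 and 5.14, and the 3 kb from 30000 had 5.37, 6.13, 4.65 and 6.18. The tile with the highest mean over the arrays was at 29700, with 5.88 (ON) and 6.50 (OFF) in wt and 5.00 (ON) and 6.70 (OFF) in clr3-CDx2. The next were at 30900 and 30000, with means over the 4 arrays of 5.83 and 5.60. The summit thus lay within the same tiles on all 4 arrays.

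At the right end the plateau gave way over a few tiles. In wt ON the level was 4.61 at tile 38400, 2.75 at 39300 and 1.10 at 39600. In clr3-CDx2 ON it was 3.72, 1.89 and 0.56 at these tiles, and in clr3-CDx2 OFF 5.62, 3.78 and 2.10. In wt OFF it was 4.08 at 39300 and 2.41 at 39600. The last tile, 41100, still read 1.0 (ON) and 1.48 (OFF) in wt and 0.74 (ON) and 1.23 (OFF) in clr3-CDx2. Only in clr3-CDx2 ON was that tile below 1. No tile lies between 35700 and 38100.

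The narrow peak at the left end stood at 4200 to 5400, and its tile 5400 read 3.64, 4.69, 2.73 and 4.62 on the 4 arrays. Tiles 4500 to 5400 pair with tiles of the mat1 cassette on chromosome II, while tile 4200 pairs with a tile to the left of it. The arm between the peak and the plateau was low. The 3 lowest contig tiles by mean, on either side of the peak, were 7500, 3900 and 3600. Tile 7500 read -0.76 (ON) and -0.17 (OFF) in wt and -1.34 (ON) and 0.23 (OFF) in clr3-CDx2. Within the arm a bump at 13500 to 14700 stood near 1 on every array: at tile 14100 the levels were 1.07 (ON) and 1.20 (OFF) in wt and 1.08 (ON) and 1.30 (OFF) in clr3-CDx2. From 15600 to 18000 they parted, and tile 17700 read 0.77 (wt) and 0.68 (clr3-CDx2) on the ON arrays against 2.01 and 1.16 on the OFF arrays.

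Runs of enriched tiles were taken as at least 5 tiles at 1 or more after a running median over 3 tiles, with a gap of 1 tile allowed. On the contig the plateau run was 50 tiles in wt ON (19200 to 41100), 69 in wt OFF (13800 to 41100), 49 in clr3-CDx2 ON (19800 to 39300) and 52 in its OFF array (17400 to 41100). In wt OFF it took in the bump from 13800 on and the tiles between.

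The contig tiles named as repeated, called shared here, could be set beside chromosome II tiles, so that most positions of these blocks were read at 2 spots of the array. A shift of 2111400 placed the left shared block (47 tiles, 4200 to 22500) on chromosome II, and a shift of 2099400 placed the right shared block (13 tiles, 35100 to 41100). These shifts were those that best matched input signal between contig and stretch (correlations across tiles of 0.63 and 0.79), so they were found from the arrays. The median absolute difference between paired tiles was 0.14 to 0.16 over 43 to 47 left pairs and 0.13 to 0.26 over 11 or 12 right pairs, and its 90th percentile was 0.40 to 0.47 on the left and 0.28 to 0.72 on the right. The pair of contig tile 4200 and chromosome II tile 2115600 did not match: the contig spot was higher by 2.91 (ON) and 4.30 (OFF) in clr3-CDx2, and in wt it was marked on both arrays. The median is a spread between spots of 1 hybridisation and says nothing of the spread between cultures.

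On chromosome II the enriched interval was centred on the inverted repeats. Over the 25 tiles from the left to the right repeat the median level was 4.12 in wt ON (range over tiles 2.98 to 4.71), 5.13 in wt OFF (4.38 to 5.83), 3.05 in clr3-CDx2 ON (2.07 to 3.71) and 4.79 in its OFF array (3.96 to 5.64). The range of clr3-CDx2 ON did not overlap those of the OFF arrays, while the ranges of every other pair did. These are ranges over tiles of single arrays and say nothing of the spread between cultures. Tiles in the mat3 cassette were lower than those in the repeats on each array, with medians of 3.72, 4.69, 2.54 and 4.62 against 4.29, 5.45, 3.35 and 5.34 in the left repeat. The cassette has 4 tiles and the repeat 6, and tiles of both are repeated in the genome.

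**Figure D2:**
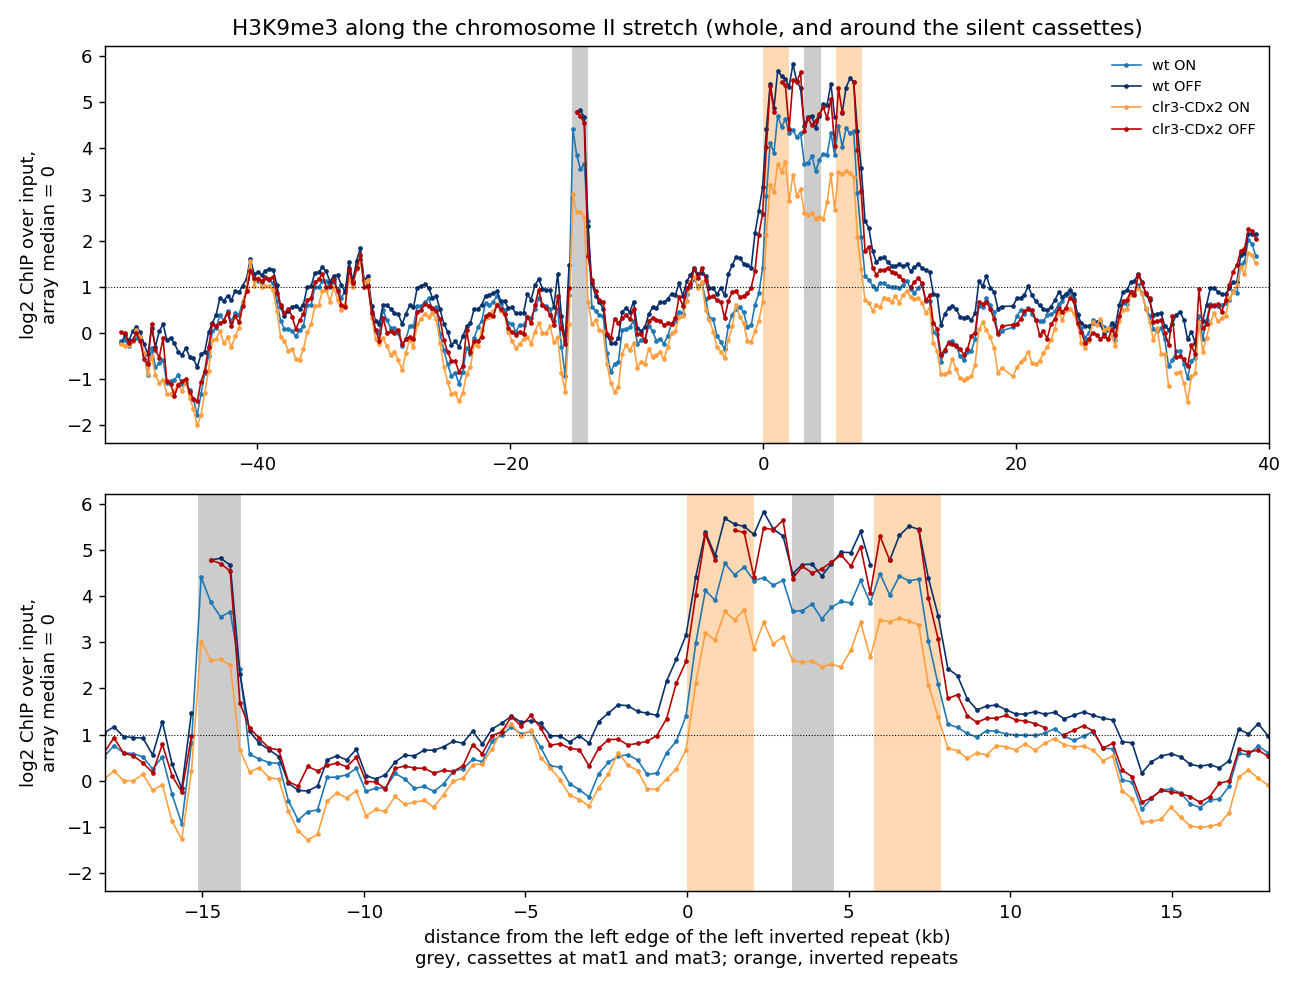
H3K9me3 level (log2 ChIP over input, array median at 0) at each tile of the chromosome II stretch against distance in kb from the left edge of the left inverted repeat, whole above and enlarged below, 1 array per group. Grey marks the mat1 and mat3 cassettes and orange the inverted repeats; the highest interval lies from repeat to repeat on all 4 arrays, and in wt OFF the 10 tiles left of it stand at 1.28 or more.

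The left edge of the interval coincided with the outer edge of the left repeat to within a few tiles. In wt ON the level was 0.86 at tile 2130600, 1.40 at 2130900, 2.98 at 2131200 and 4.12 at 2131500. In clr3-CDx2 ON these tiles read 0.26, 0.67, 2.12 and 3.21. In wt OFF they read 2.63, 3.15, 4.41 and 5.39, and in clr3-CDx2 OFF 2.12, 2.59, 4.03 and 5.34. The tile at 2131200 is the first wholly inside the repeat. Sheared fragments were about 1000 bp long, longer than the tile spacing of 300 bp, so edges are known to no better than a few tiles.

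The 10 tiles outside the left repeat were higher on the OFF arrays. Their median level was 0.49 in wt ON (range over tiles 0.14 to 1.40), 1.57 in wt OFF (1.28 to 3.15), 0.18 in clr3-CDx2 ON (-0.18 to 0.67) and 0.90 in its OFF array (0.70 to 2.59). All 10 tiles were at 1 or more in wt OFF, against 1 in wt ON, 0 in clr3-CDx2 ON and 3 in its OFF array. In wt OFF the level was 1.42 to 1.64 from tile 2128500 to 2130000, a shelf beside the repeat. The same tiles ran from 0.14 to 0.57 in wt ON.

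To the right of the right repeat the signal ended in a shelf on all arrays. The 10 tiles from 2138700 on had medians of 1.05 (ON) and 1.63 (OFF) in wt and 0.69 (ON) and 1.39 (OFF) in clr3-CDx2, and the next 10 had 0.97, 1.42, 0.70 and 1.08. By the offset used, tile 2138700 itself lies inside the right repeat, though its name does not mark it as repeated. The shelf ended between tiles 2143500 and 2145000, which read 1.07, 1.42, 0.66 and 1.08 at the first of these tiles and -0.62, 0.17, -0.89 and -0.47 at the second. In the ratio the shelf was thus present to the right on ON and OFF arrays, whereas to the left the ON medians were below 0.5. In ChIP signal alone, relative to its array median, the ON arrays read 0.57 (wt) and 0.34 (clr3-CDx2) in the left 10 tiles. The right 10 tiles read 0.47 and 0.19. Input signal was 0.01 and 0.14 on the left and -0.69 and -0.60 on the right. ChIP signal alone was thus not higher on the right in ON cells. The part of the input in the right shelf was not tested.

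The enriched run through the repeats spanned 10.2 kb in wt ON (34 tiles, 2130900 to 2140800), 16.2 kb in wt OFF (53 tiles, 2128200 to 2144100), 7.8 kb in clr3-CDx2 ON (26 tiles, 2131200 to 2138700) and 13.5 kb in clr3-CDx2 OFF (41 tiles, 2130300 to 2143500). At this level it was longer in OFF than in ON cells of either genotype. By the pairing of shared tiles, the contig-only block falls between chromosome II tiles 2133900 and 2134500, so these spans leave it out. On the contig the plateau run spanned 22.2 and 27.6 kb in wt ON and OFF, and 19.8 and 24 kb in clr3-CDx2 ON and OFF. That run reached the last contig tile on all arrays but clr3-CDx2 ON. Much of the length on chromosome II lay in shelf tiles close to the level of 1, and the order did not hold at all settings. Other settings were read over all runs of the stretch together, which at the level of 1 held 57 (ON) and 99 (OFF) tiles in wt and 43 and 78 in clr3-CDx2. At a level of 2 all runs held 31 (ON) and 30 (OFF) tiles in wt and 25 and 25 in clr3-CDx2. When each array was multiplied so that the medians of pericentromeric tiles were equal, they held 73 and 82 in wt and 58 and 51 in clr3-CDx2. Under that scaling OFF thus stayed above ON in wt but not in clr3-CDx2.

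A second peak stood at the mat1 cassette. Its 4 tiles read 3.55 to 4.41 in wt ON and 2.50 to 3.02 in clr3-CDx2 ON, and the 3 used tiles read 4.67 to 4.82 in wt OFF and 4.54 to 4.78 in clr3-CDx2 OFF. Those values were close to the 4 tiles of the mat3 cassette, with medians of 3.76, 4.78, 2.62 and 4.70 at mat1 against 3.72, 4.69, 2.54 and 4.62 at mat3. Since the sequences are identical, how much of the signal came from mat1 cannot be told apart. Tiles to either side of the cassette have sequence of their own. Tile 2115600 on the left read 0.81 (ON) and 1.48 (OFF) in wt and 0.20 (ON) and 0.97 (OFF) in clr3-CDx2. The adjacent tile on the right, 2117100, was not well above background on any array and gives no usable level, although its ratios of 2.42, 2.32, 0.67 and 1.68 enter the counts of the stretch. Tile 2117400, the next to the right, read 0.57, 1.07, 0.19 and 1.15. At the next tiles out the level was below 1 on all arrays at 2117700 and below 0 at 2115300, where it was -0.93, -0.16, -1.27 and -0.24.

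Away from the peaks and shelves, the outer parts of the stretch were closer to the array median. The 47 tiles between the mat1 cassette and the left repeat, left flank included, had medians of 0.27, 0.84, -0.003 and 0.70. In wt OFF 19 of these 47 were at 1 or more (40.4%, against 13.4% of all tiles). The 100 tiles of the outer left 30 kb had medians of 0.16 (ON) and 0.58 (OFF) in wt and -0.15 (ON) and 0.22 (OFF) in clr3-CDx2, and the 65 tiles of the outer right 20 kb 0.38, 0.69, 0.15 and 0.30. The tiles 2090400 to 2091900 and 2098500 to 2099700 lay in weak runs on all 4 arrays, with run medians from 1.03 to 1.30. Weak runs at 2124600 to 2126400 in wt OFF (median 1.25) and 2125200 to 2126400 in clr3-CDx2 OFF (1.19) were called on the OFF arrays only. A run at the right limit of the stretch reached 2169900 on all arrays, with medians of 1.47 to 1.80, and its right edge lies outside the tiles taken. Over the whole stretch a level of 1 or more was met by 66 of 298 tiles in wt ON (22.1%, against 12.9% of all tiles), 111 of 296 in wt OFF (37.5% against 13.4%), 49 of 297 in clr3-CDx2 ON (16.5% against 14.9%) and 79 of 293 in its OFF array (27.0% against 16.7%). The share in clr3-CDx2 ON was thus close to that of all tiles.

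OFF cells were compared with ON cells of the same genotype, the question being how the marks at this native domain stood after tetR-clr4 was turned off. Differences are medians over tiles used on both arrays. Over the contig-only block wt OFF was above wt ON by 0.80, a 1.75-fold difference, with 31 of 31 tiles positive and a range over tiles of 0.56 to 1.66. clr3-CDx2 OFF was above clr3-CDx2 ON by 1.70, or 3.25-fold, with 27 of 27 tiles positive and a range of 1.09 to 2.12. From repeat to repeat on chromosome II the differences were 1.0 in wt (24 of 24 tiles positive) and 1.91 in clr3-CDx2 (22 of 22). Over all tiles of the array 57.8% (wt) and 59.1% (clr3-CDx2) were positive. The clr3-CDx2 difference exceeded the wt difference by 0.92 in the contig-only block, in 23 of 23 tiles, and by 0.84 from repeat to repeat, in 21 of 21 tiles. It did so in 53.5% of all tiles. With normexp background correction the OFF minus ON differences were 0.54 (wt) and 0.80 (clr3-CDx2) in the contig-only block. From repeat to repeat they were 0.74 and 1.26, so the genotypes lay closer together in both. The excess of clr3-CDx2 over wt was not tested, as each group had 1 array.

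Counting a tile as moved when it differed by at least 1 and stood at 1 or more on an array compared, 22 of 96 contig tiles were higher in wt OFF than in wt ON and 0 were lower, against 0.622% higher and 0.527% lower among all tiles. In clr3-CDx2, 48 of 95 contig tiles were higher in OFF and 0 lower, against 1.86% and 0.252% of all tiles. On the chromosome II stretch 26 of 296 tiles were higher in wt OFF and 32 of 292 in clr3-CDx2 OFF, with 0 lower in either. These counts fell with other settings: in the ChIP channel alone 1 (wt) and 13 (clr3-CDx2) contig tiles were higher in OFF, and with the pericentromeres equalised 1 and 3. Neighbouring tiles share fragments, and tiles repeated on the contig and the chromosome are counted in both.

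**Figure D3:**
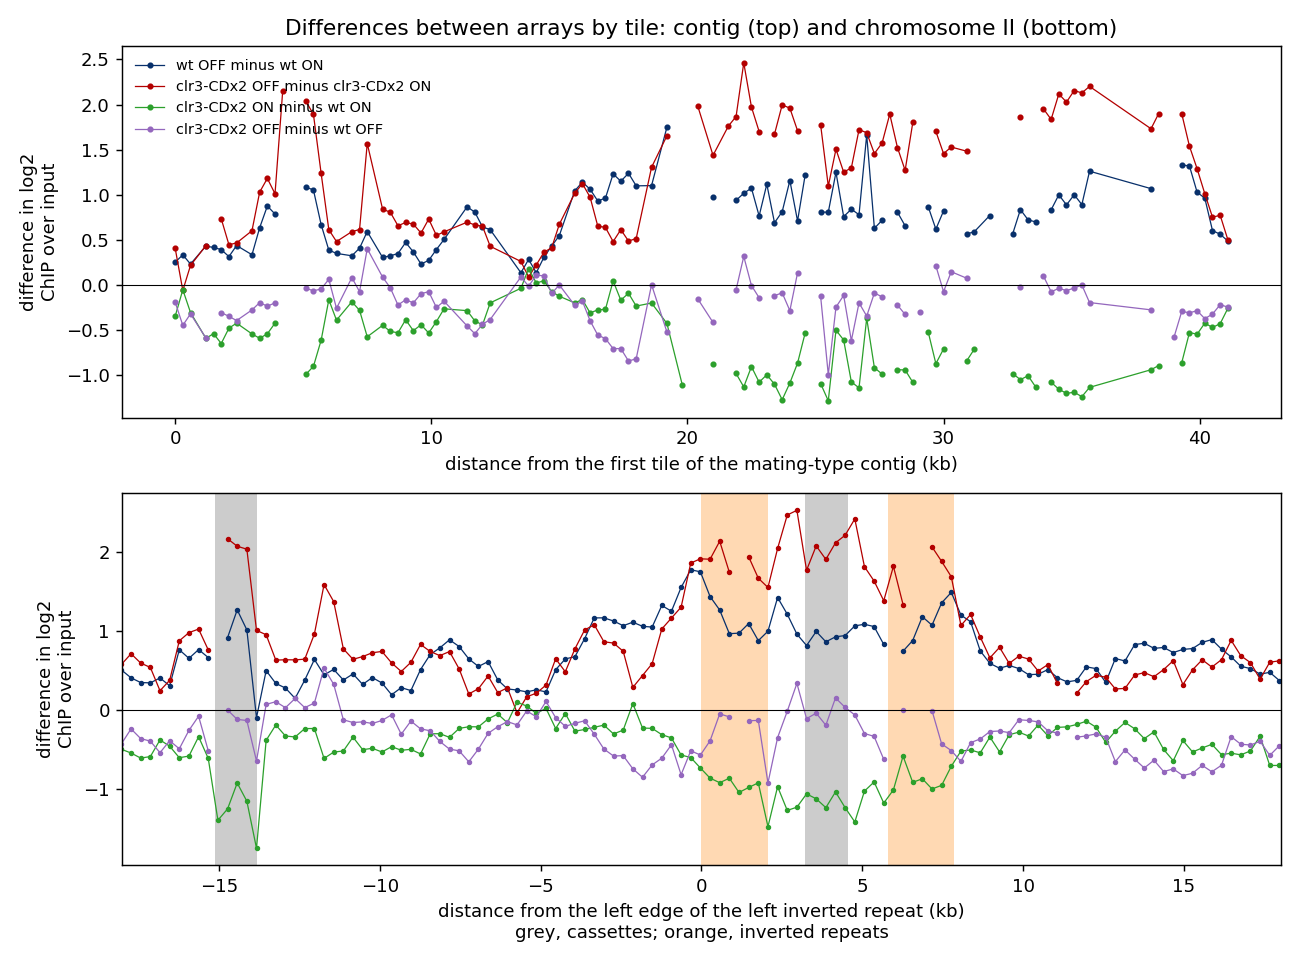
Difference in H3K9me3 level (log2 ChIP over input) between pairs of arrays at each tile used on both, along the contig (top, kb from its first tile) and the centre of the chromosome II stretch (bottom, kb from the left edge of the left repeat). In the contig-only block the OFF minus ON difference is 0.80 (wt) and 1.70 (clr3-CDx2), and the clr3-CDx2 minus wt difference is -1.0 in ON cells and -0.12 in OFF cells.

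The genotypes differed in ON cells and much less in OFF cells over the plateau. In the contig-only block clr3-CDx2 ON was lower than wt ON, with a difference of -1.0 and 0 of 31 tiles positive. clr3-CDx2 OFF differed from wt OFF by -0.12, with 5 of 26 tiles positive. From repeat to repeat the differences were -1.01 and -0.11. Over all tiles 49.2% (ON pair) and 53.9% (OFF pair) were positive. On the contig 21 of 98 tiles were lower by the moved rule in clr3-CDx2 ON than in wt ON and 0 were higher, against 0.564% lower and 0.433% higher among all tiles. Between the OFF arrays 0 of 92 contig tiles were counted as lower or higher, against 0.0416% and 0.96% of all tiles. The 21 became 3 with normexp background correction, 0 in the ChIP channel alone and 0 with the pericentromeres equalised. On the stretch these counts were 17 of 297 lower in ON cells, tile 2117100 among them, and 0 of 292 in OFF cells.

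The plateau differences depended on how arrays were scaled to each other. Used tiles among the 360 of the pericentromeres, other large domains of H3K9me3 in this genome, differed in the same order: 0.73 for wt OFF minus wt ON, 1.43 for clr3-CDx2 OFF minus clr3-CDx2 ON, -0.79 for clr3-CDx2 ON minus wt ON and -0.14 for clr3-CDx2 OFF minus wt OFF. The medians over all tiles were 0.04, 0.06, 0.00 and 0.03. When each array was multiplied so that the pericentromeric medians were equal, the contig-only difference between OFF and ON was -0.40 for wt and -0.54 for clr3-CDx2, and that between clr3-CDx2 ON and wt ON was 0.12, so the direction of all 3 turned. From repeat to repeat the same scaling gave -0.05, 0.19 and -0.21. The turn in the contig-only block depended on which tiles set the scale, in 3 variants chosen after seeing the data. With the repeated pericentromeric tiles alone, marked spots kept, the 3 differences were 0.08, 0.29 and -0.14 and none turned. With the same tiles and marked spots left out they were -0.33, 1.09 and -0.66, and of these wt alone turned, while clr3-CDx2 OFF minus wt OFF went from -0.12 to 0.65. With tiles unmarked on all 4 arrays all 3 turned, but there the clr3-CDx2 ON median was 0.08, so its levels were multiplied by 13.8 and the sizes cannot be read. In the plateau a difference at the mating-type region and a difference between whole arrays cannot be told apart.

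The left flank stood at low levels, which a multiplied scale moves little by its construction, so that scaling says little about it. The 10 tiles left of the left repeat differed by 1.19 between wt OFF and wt ON, with 10 of 10 tiles positive and all 10 counted as moved, and by 0.97 with the pericentromeres equalised. In clr3-CDx2 they differed by 0.94 (10 of 10 positive, 3 counted as moved), and by 0.90 with the pericentromeres equalised. The shares of positive tiles over the whole array are those given above. Over the whole stretch the tiles counted as higher in OFF fell under that scaling from 26 to 5 in wt and from 32 to 3 in clr3-CDx2. The 10 tiles right of the right repeat, from 2138700 on, differed by 0.58 (wt) and 0.74 (clr3-CDx2), and by 0.27 and 0.34 with the scaling. Without repeated tiles these differences were 0.57 and 0.68. In the left flank clr3-CDx2 OFF was lower than wt OFF, by a difference of -0.59 with 0 of 10 tiles positive, larger in size than the -0.12 of the contig-only block. Part of such differences ran through the surroundings: the outer left 30 kb differed by -0.33 between the OFF arrays, with 6 of 100 tiles positive. OFF minus ON in the outer left 30 kb was 0.35 in wt and 0.23 in clr3-CDx2. The OFF minus ON difference was smaller in clr3-CDx2 than in wt in 8 of the 10 left tiles, with a median of -0.29, the opposite sign to the 0.84 from repeat to repeat.

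Part of each ratio came from the input channel. The input signal in the contig-only block lay below the array median, at -1.79 (ON) and -2.28 (OFF) in wt and -1.32 (ON) and -2.33 (OFF) in clr3-CDx2. The ChIP signal alone was above its median by 2.85, 3.46, 2.45 and 3.06. Within each genotype the OFF array was thus the higher in ChIP and the lower in input signal. In ChIP signal alone the OFF minus ON difference was 0.41 for wt and 0.65 for clr3-CDx2, and in input signal -0.32 and -0.97. Between genotypes the ChIP signal difference was -0.48 for the ON pair and -0.26 for the OFF pair. In the 10 tiles of the left flank the input lay between -0.38 and 0.14, and the ChIP signal alone differed by 0.91 in wt and 0.75 in clr3-CDx2. The part of the low input in the ratios was not tested.

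**Figure D4:**
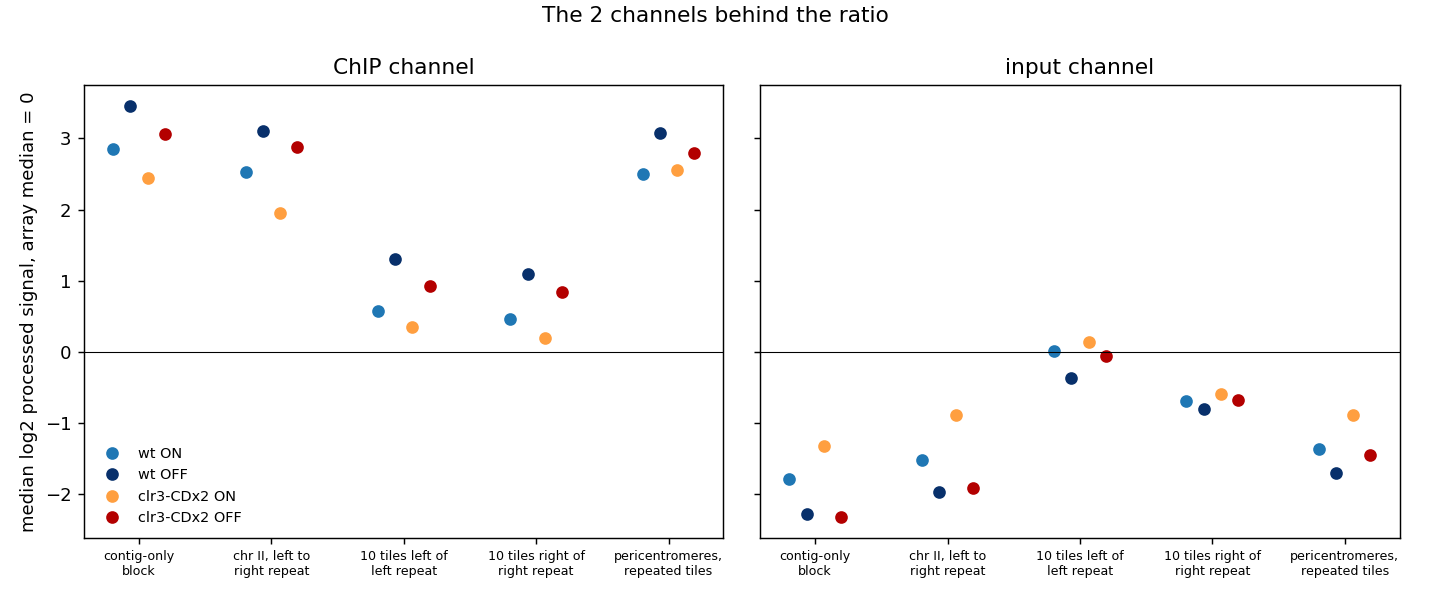
Median log2 processed signal of the ChIP channel (left) and the input channel (right), array median at 0, over 5 groups of tiles, 1 point per array. In the contig-only block the ChIP medians lie between 2.45 and 3.46 and the input medians between -2.33 and -1.32, while the 10 tiles left of the left repeat have input medians between -0.38 and 0.14.

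The stretch of chromosome II holds 45 protein-coding genes and listed RNA genes, of which 41 were measured by at least 2 tiles. A median level of 1 or more was reached by 7 (ON) and 14 (OFF) genes in wt and 5 (ON) and 9 (OFF) in clr3-CDx2, against 9.04%, 9.28%, 11.2% and 12.8% of the 4946 measured protein-coding genes of the genome, a background without the RNA genes. mat1-Mc, which encodes the HMG-box regulator of M cells, read 3.71 (ON) and 4.80 (OFF) in wt and 2.62 (ON) and 4.74 (OFF) in clr3-CDx2 over 2 tiles shared with the silent copy. The noncoding RNA gene SPNCRNA.389 in the left repeat read 4.12, 5.39, 3.21 and 5.07 on the same arrays. SPNCRNA.390, which overlaps the right repeat, read 4.37, 5.38, 3.46 and 5.30. For these 3 genes clr3-CDx2 ON was the lowest array and wt OFF the highest. All 3 tiles of SPNCRNA.389 and all 5 of SPNCRNA.390 are repeated in the genome. Tiles within the inverted repeats read both copies, so these RNA genes are not separate readings.

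The genes on the left flank lie outside the repeats and are read by tiles of their own. rpp202, which encodes ribosomal protein P2, read 0.15 (ON) and 1.44 (OFF) in wt and -0.18 (ON) and 0.92 (OFF) in clr3-CDx2. SPBC23G7.14, annotated as an uncharacterised protein, read 0.43, 1.49, 0.18 and 0.83. For both genes each OFF array was above both ON arrays. Further left, SPBC23G7.13c read 0.92, 1.25, 0.83 and 1.11 and differed little between arrays. rpt6, a subunit of the proteasome's regulatory particle, read 0.24 (ON) and 0.84 (OFF) in wt and 0.03 (ON) and 0.28 (OFF) in clr3-CDx2.

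Genes of the right shelf were at moderate levels on all arrays. emc3, which encodes a subunit of the endoplasmic reticulum membrane protein complex, read 1.01 (ON) and 1.54 (OFF) in wt and 0.73 (ON) and 1.36 (OFF) in clr3-CDx2. mtd1, annotated as a methylenetetrahydrofolate reductase, read 1.01, 1.46, 0.80 and 1.15, and srp40, annotated as a nucleocytoplasmic transport chaperone, 0.70, 1.36, 0.54 and 0.82. The next gene, rpl401, a ribosomal protein gene, read -0.29, 0.47, -0.86 and -0.30. Its level lay below those of the shelf genes, but 3 of its 4 tiles are repeated in the genome and do not read this place alone.

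**Figure D5:**
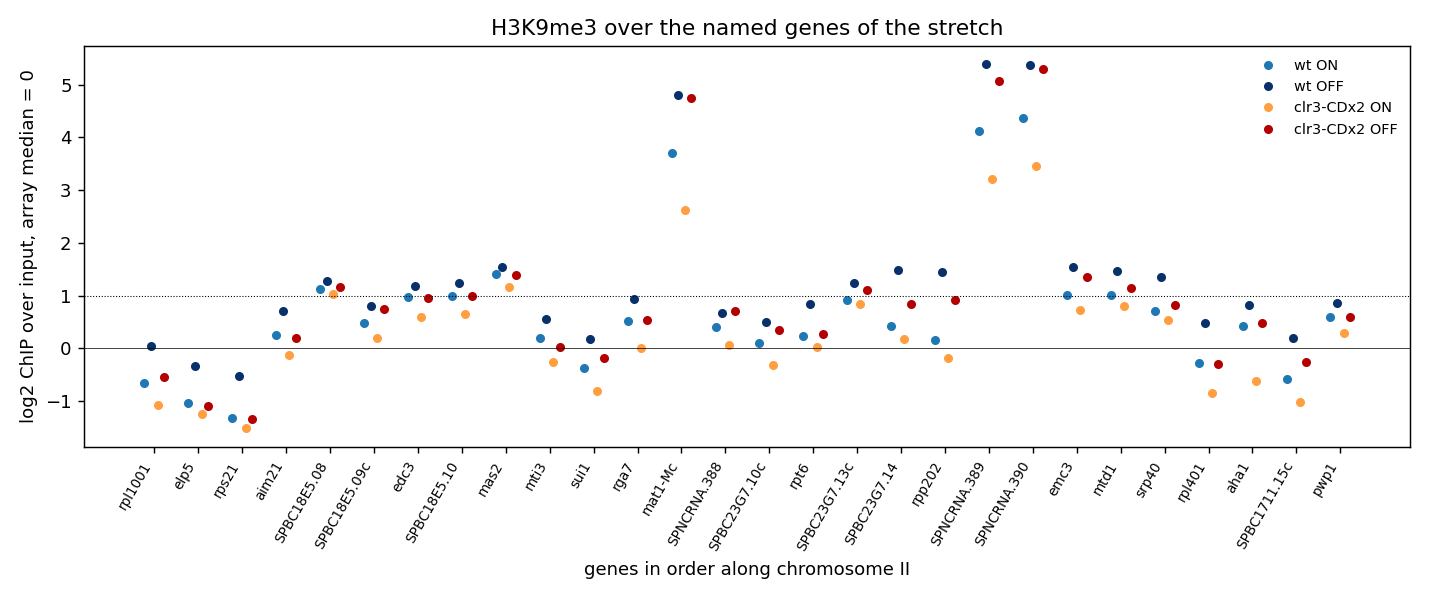
H3K9me3 level (log2 ChIP over input, array median at 0, median over the tiles of a gene) of the 28 named genes of the chromosome II stretch in their order along the chromosome, 1 point per array; the dotted line is a level of 1. The cassette and repeat genes mat1-Mc, SPNCRNA.389 and SPNCRNA.390 lie above 2.6 on all arrays, and rps21 is the lowest.

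Away from the cassettes the highest gene was mas2, annotated as a subunit of the mitochondrial processing peptidase, with 1.41 (ON) and 1.54 (OFF) in wt and 1.16 (ON) and 1.38 (OFF) in clr3-CDx2. SPBC18E5.08, annotated as an N-acetyltransferase, read 1.12, 1.28, 1.03 and 1.17. These genes lay in the weak runs of the left part and differed by less than 0.5 between any pair of arrays. The lowest gene was rps21, a small ribosomal subunit gene, at -1.33, -0.52, -1.52 and -1.35. Also low were elp5, a subunit of Elongator, at -1.04, -0.33, -1.25 and -1.10, and rpl1001, a large ribosomal subunit gene, at -0.66, 0.03, -1.08 and -0.54. Of the 3 tiles of rpl1001, 2 are repeated in the genome. aha1, an activator of the chaperone Hsp90, read 0.42 (ON) and 0.82 (OFF) in wt and -0.62 (ON) and 0.47 (OFF) in clr3-CDx2, with clr3-CDx2 ON below 0.

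By the moved rule 5 of the 41 genes were higher in wt OFF than in wt ON, against 0.202% higher and 0.546% lower of the measured protein-coding genes of the genome. They were mat1-Mc, SPNCRNA.389, SPNCRNA.390, SPBC23G7.14 and rpp202, which are not 5 separate places. All tiles of mat1-Mc and the RNA genes are repeated, the RNA genes share repeat sequence, and SPBC23G7.14 overlaps rpp202. In clr3-CDx2 the count was 3, against 0.89% higher and 0.202% lower, and held mat1-Mc and both RNA genes. Between genotypes mat1-Mc alone was counted as lower in clr3-CDx2 ON than in wt ON, against 0.121% lower and 0.364% higher, and no gene was counted between the OFF arrays, against 0% lower and 0.809% higher. Of the 41 genes, 41 differed in the positive direction between wt OFF and wt ON and 39 between clr3-CDx2 OFF and clr3-CDx2 ON. The number above 0 was 0 for clr3-CDx2 ON minus wt ON and 1 for clr3-CDx2 OFF minus wt OFF. Over all tiles of the array, rather than genes, 57.8%, 59.1%, 49.2% and 53.9% were positive in these 4 comparisons. Differences mostly of 1 sign ran through the whole stretch, and the median over its tiles was 0.41 for wt, 0.48 for clr3-CDx2, -0.33 between ON arrays and -0.30 between OFF arrays.

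Genes elsewhere that act with the mating-type cassettes stood below the plateau levels. Of 16 listed targets of the mating-type regulators, 14 were measured, and their median level was -0.19 (ON) and -0.05 (OFF) in wt and -0.26 (ON) and -0.05 (OFF) in clr3-CDx2, beside 0.08, 0.06, 0.10 and 0.08 over all measured protein-coding genes. Those at 1 or more were mam1, a transporter that exports the M pheromone, and mam3, an agglutinin of M cells, on all 4 arrays, and ste6, a Ras exchange factor, on 3. These were 3, 2, 3 and 3 of the 14, against 9.04%, 9.28%, 11.2% and 12.8% of all measured protein-coding genes. None of the 14 was counted as moved in any of the 4 comparisons. Among 20 genes for silencing factors the median was 0.69, 0.72, 0.71 and 0.82, and 5, 6, 6 and 8 were at 1 or more, or 25%, 30%, 30% and 40%. Among them clr1, rik1, mit1 and dcr1, named after their values were seen, read 1.21 to 1.56 on every array, beside 1.16 to 1.54 for mas2 in the stretch. None of the 20 was counted as moved. clr3 itself differed between genotypes by -1.94 in ON and -1.97 in OFF arrays but stood below 1 on all of them.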

How the data were processed

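For 4 samples, Cy5-labelled H3K9me3 ChIP DNA and Cy3-labelled whole-cell extract were hybridised to 2-colour tiling arrays, 1 per group. The authors made the scanner files with Feature Extraction 12.0.3.1, per the submitters' processing notes, and per the file headers these hold the spot and background intensity and the dye-normalised processed intensity of each channel and a log10 ratio. The deposited matrix holds log2 values equal to log2 of processed ChIP over processed input. They are uncentred (medians 0.23 and 0.17 in wt ON and OFF, 0.30 and 0.18 in clr3-CDx2 ON and OFF), and 1 tile per array lay over 0.01 from the log10 ratio.

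From these, log2 processed ChIP over input was centred on each array's median over unmarked tiles, with 1417 control spots left out and no loess or quantile step. The median input signal was 417 to 490 times background and the median ChIP signal 137 to 166 times, and in the contig-only block the input was 108 to 181 times background. The number of arrays limits the precision. Tools were Python 3.11.15, pandas 2.3.3, numpy 2.4.6 and, for normexp, limma 3.58.1. The finding of enriched runs was tested on simulated data. The scanner files hold no mean signal, so normexp (offset 50) was run on median spot and background signals in place of the planned means.

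Genes were placed from the RefSeq annotation. Named genes of the stretch were the 5 highest and 5 lowest by mean, the 5 with the largest range over arrays, those of the cassettes, and those in or beside an enriched run. The tiles, genes and lists were chosen with earlier results of these data known. No sequence of the contig was used here, and the build behind the array positions is not given in the sources used here. Alternatives covered marked spots, centring, background, the input channel, repeated tiles, pericentromere scaling and the level threshold.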

Additional observations from a re-analysis of the deposited data

How the results depend on the processing

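With 1 array per group, leaving out a replicate was not possible, and no paired analysis was possible because each group has 1 array. Values are given in the order wt ON, wt OFF, clr3-CDx2 ON, clr3-CDx2 OFF, and a value counts as moved when it shifts by more than 1.5-fold or a count by more than 1.5 times. The deposited uncentred ratios moved none of the 48 summary results. The cause was not tested for any shift below unless the setting itself leaves out tiles or changes the level.

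With marked spots kept, the contig medians were 3.07, 4.29, 2.08 and 3.54, since marked spots lie mostly in the plateau, and 3 contig tiles were lower in clr3-CDx2 OFF than wt OFF. Centring on the mode gave 1 such tile, and in the stretch 41 enriched tiles and 37 in runs in wt ON. With normexp, 27 contig tiles were higher in clr3-CDx2 OFF than ON, 3 were lower in clr3-CDx2 ON than wt ON (7 in the stretch) and 2 in clr3-CDx2 OFF than wt OFF, and runs of wt OFF in the stretch held 152 tiles. The clr3-CDx2 OFF minus ON difference moved to 0.80 in the contig-only block and to 1.26 from repeat to repeat.

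In the ChIP channel alone, 1 contig tile was higher in wt OFF than ON (5 in the stretch) and 13 in clr3-CDx2 OFF than ON (17), 0 were lower in clr3-CDx2 ON than wt ON (1), the clr3-CDx2 OFF minus ON difference over the contig was 0.56, and clr3-CDx2 OFF runs in the stretch held 49 tiles.

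Without repeated tiles, the contig medians were 4.53, 5.58, 3.64 and 5.18 over all contig tiles left, of which 32, 37, 36 and 28 were enriched, with 32, 36 and 28 in runs in wt ON, wt OFF and clr3-CDx2 OFF. Tiles higher in OFF were then 5 (wt) and 27 (clr3-CDx2) on the contig and 17 and 14 in the stretch, and 7 of the stretch were lower in clr3-CDx2 ON than wt ON. In the stretch wt ON had 43 enriched tiles and clr3-CDx2 ON 27, with 34 and 25 in runs.

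With pericentromeres equalised, the OFF minus ON difference over the contig was 0.17 in wt and 0.30 in clr3-CDx2. Tiles higher in OFF were 1 and 3 on the contig and 5 and 3 in the stretch, 4 contig tiles were lower in clr3-CDx2 OFF than ON, 0 contig tiles and 1 stretch tile were lower in clr3-CDx2 ON than wt ON, and clr3-CDx2 OFF runs in the stretch held 51 tiles. Directions turned in the contig-only block (clr3-CDx2 OFF minus ON -0.54, clr3-CDx2 ON minus wt ON 0.12, wt OFF minus ON -0.40, clr3-CDx2 OFF minus wt OFF 0.04), for SPNCRNA.389 (clr3-CDx2 OFF minus ON -0.0012) and for SPNCRNA.390 (-0.11 in wt, -0.15 in clr3-CDx2). From repeat to repeat wt OFF minus ON (-0.05) and clr3-CDx2 OFF minus wt OFF (0.03) turned. There clr3-CDx2 OFF minus ON fell to 0.19, and clr3-CDx2 ON minus wt ON was -0.21. Of 3 other sets of pericentromeric tiles, chosen after seeing the data, repeated tiles turned wt OFF minus ON in the contig-only block with marked spots left out (-0.33) and clr3-CDx2 OFF minus wt OFF there either way (0.06 with marked spots, 0.65 without). Tiles unmarked on all arrays gave -48.6 and 47.2 in the contig-only block and -36.98 and 37.12 from repeat to repeat for clr3-CDx2 OFF minus ON and clr3-CDx2 ON minus wt ON, since the clr3-CDx2 ON median they equalise was 0.083, and turned the left flank for clr3-CDx2 OFF minus ON (-1.83).

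At a level of 0.5 the stretch held 137, 206, 96 and 142 enriched tiles, with 130, 199, 94 and 122 in runs. At a level of 2 it held 32, 37, 29 and 31, with 31, 30, 25 and 25 in runs. Shifting the reference by 300 bp either way, an alternative chosen after seeing the data, moved none of 112 gene levels.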
